A study of Mus musculus with 4 samples.

Results

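The genes of non-homologous end joining were examined in the frontonasal prominence (FNP), the embryonic facial tissue that forms the nose and snout. They are 9 genes, Xrcc4, Xrcc5, Xrcc6, Prkdc, Lig4, Nhej1, Dclre1c, Trp53bp1 and Rif1, which were chosen by name as parts of 1 DNA repair route, and all 9 had a row among the 33708 rows of the deposited table. The tissue came from 4 mouse embryos on the FVB/NJ strain at E10.5 with 29 somites. The WT group held 2 Smchd1+/+ embryos, 1 labelled female and 1 male, and the MD43 group held 2 male embryos homozygous for MommeD43, a missense allele of the chromatin protein SMCHD1. MommeD43 arose on FVB/NJ in a chemical mutagenesis screen and was kept on that strain, so variants linked to it may be carried along. The study found other single nucleotide variants in the linked interval, none of them exonic, and judged none as likely detrimental. The second embryo of each group came from the same mother, and the others from 2 further mothers. Another record of the study names the second WT embryo as female, and the sexes were not checked here. Under either record sex and genotype could not be told apart, since the values of the embryos of a genotype were merged.

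Non-homologous end joining reseals broken DNA without a template. The Ku heterodimer binds the broken ends and recruits the kinase DNA-PKcs, the nuclease Artemis trims ends that cannot be joined directly, and DNA ligase IV seals them together with its partners XRCC4 and XLF. 53BP1 and RIF1 hold back the resection of the ends and so favour joining over homologous recombination. The route works throughout the cell cycle, and mice without some of its core factors lose newly formed neurons in the embryo.

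For each genotype the authors deposited 1 value per gene, the log2 RPKM (read density corrected for library size and for transcript length in kb) of its 2 libraries merged. The genotype values therefore come with no spread between embryos, and no test between genotypes was run. The values keep the product of the read counts of both libraries of a genotype, and the reads given are the square root of that product. The error after a difference is the smallest standard error that counting these reads allows, and it leaves out all variation between embryos. These correspond to libraries of 22328791 reads in MD43 and 16055882 in WT, as the mean of 2. The 15378 genes that reached 10 reads in either genotype served as the background, and all 9 members were among them. In whole tissue, fewer cells of a type and less RNA per cell cannot be told apart.

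As a group the end joining genes had near-equal values in the 2 genotypes. The median difference of the 9 genes, MD43 minus WT, was 0.003 on the log2 scale, against 0.006 over all 15378 genes. A difference of at least 1.2-fold was found for 2 of the 9 genes, Lig4 with the higher value in MD43 and Xrcc4 with the lower value, while 31.0% of all genes were this far apart. The other 7 lay within 1.2-fold. No member was 2-fold apart, as were 4.11% of all genes. The share of genes 1.2-fold apart was 24.8% among those with 100 to 1000 reads in both genotypes and 8.93% among those with at least 1000, so the background depends on the reads behind a gene.

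**Figure D1:**
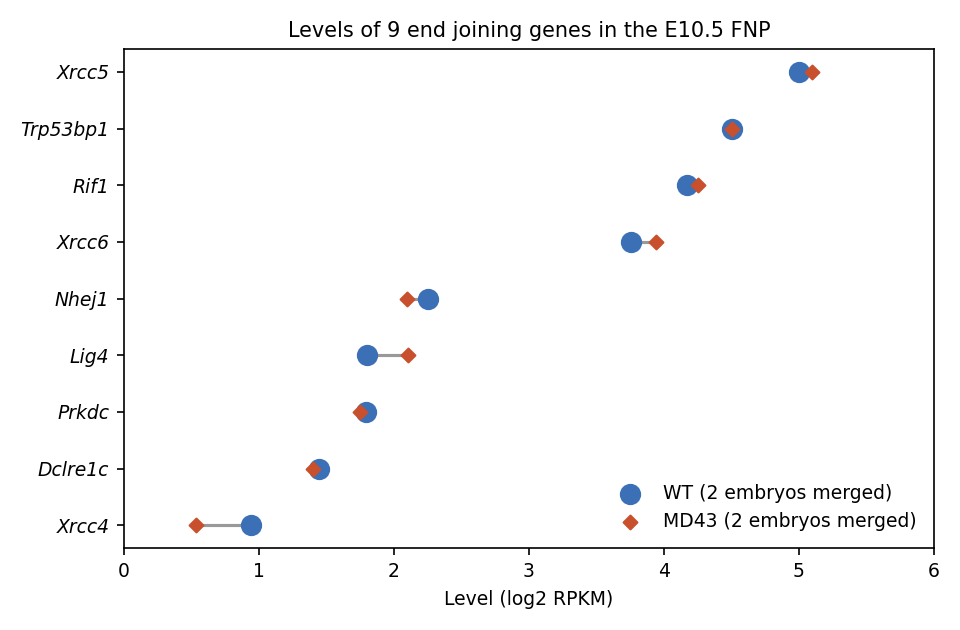
Level of the 9 end joining genes in log2 RPKM (horizontal axis), with WT as circles and MD43 as diamonds, each the authors' value of 2 merged embryos. The genes run from Xrcc5 at about 5 to Xrcc4 below 1, and Lig4 and Xrcc4 are the 2 genes with the widest gap between the symbols.

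The levels spanned a wide range. Xrcc5 was highest in both genotypes, followed by Trp53bp1, Rif1 and Xrcc6, and these 4 genes lay above the median level of all genes used. Nhej1, Lig4, Prkdc and Dclre1c lay between 1.40 and 2.25 log2 RPKM. Xrcc4 was lowest in both genotypes, at the 28.6th percentile of all genes used, while Xrcc5 stood at the 90.3rd. The order was the same in WT and MD43 except that Nhej1 and Lig4 changed places. These 2 stood at 2.25 and 1.80 log2 RPKM in WT and at 2.10 and 2.11 in MD43. Without values for single embryos, it cannot be said which neighbours in this order truly differ. The authors' length counts every annotated exon. Per length of the longest transcript, a choice made after seeing the data, Trp53bp1 stood at 5.07 log2 RPKM in MD43, next to Xrcc5 at 5.10, and Dclre1c at 1.80 stood next to Prkdc at 1.81. On this scale Nhej1 stood above Lig4 in both genotypes, at 2.18 and 2.15 in MD43 and at 2.34 and 1.85 in WT, so that the change of places depends on the length used.

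The end-binding step is carried by Xrcc5, which encodes Ku80, and Xrcc6, which encodes Ku70. Xrcc5 (ENSMUSG00000026187, GRCm38 chromosome 1, 72307427 to 72394952, plus strand) had 5.10 log2 RPKM in MD43 and 5.005 in WT, on about 1957 and 1317 reads. The difference was 0.10 ± 0.04 (counting SE). Xrcc6 (ENSMUSG00000022471, chromosome 15, 81987835 to 82040085, plus strand) had 3.94 log2 RPKM in MD43 and 3.76 in WT, on 1533 and 974 reads. Its difference was 0.18 ± 0.04, or 1.13-fold, and 44.9% of all genes used were at least as far apart. Both Ku genes thus had the higher value in MD43, neither by 1.2-fold. The 2 proteins pair 1 to 1. The RPKM of Xrcc5 was 2.24 times that of Xrcc6 in MD43 and 2.37 times in WT. These ratios depend on the length used, with 2555 bases of annotated exon for Xrcc5 and 4476 for Xrcc6. Per length of the longest transcript the ratios were 1.65 and 1.75. Whether the transcripts of the 2 genes differ in number cannot be read from these ratios. The span of Xrcc6 overlaps Desi1 on the opposite strand, with 344 bases of shared exon, 7.69% of the exons of Xrcc6. Desi1 differed by 0.16 ± 0.04, and reads of this pair can be shared, since no source states whether the counting was by strand.

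The processing step takes DNA-PKcs, the kinase encoded by Prkdc, and Artemis, the nuclease encoded by Dclre1c. Prkdc (ENSMUSG00000022672, chromosome 16, 15637866 to 15842235, plus strand) had 1.75 log2 RPKM in MD43 and 1.80 in WT, on 988 and 735 reads. Its difference of -0.05 ± 0.05 was within its counting error. Prkdc starts 466 bases from Mcm4, a replicative helicase gene on the opposite strand. Mcm4 stood at 6.59 and 6.49 log2 RPKM and differed by 0.11 ± 0.02. Dclre1c (ENSMUSG00000026648, chromosome 2, 3424131 to 3464130, plus strand) had 1.40 log2 RPKM in MD43 and 1.44 in WT, on 548 and 407 reads. The difference was -0.05 ± 0.07, again within counting error. Its exons share 357 bases with Suv39h2 on the opposite strand, which differed by -0.06 ± 0.03.

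In the ligation step, DNA ligase IV is stabilised by XRCC4, and XLF (encoded by Nhej1) bridges the ends. The 2 of 9 genes that passed 1.2-fold, Lig4 and Xrcc4, belong to this step. As 31.0% of all genes were this far apart, their shared step is not read as a result. Lig4 (ENSMUSG00000049717, chromosome 8, 9969049 to 9977686, minus strand) had 2.11 log2 RPKM in MD43 and 1.80 in WT, on 500 and 292 reads. Its difference was 0.30 ± 0.08, a 1.23-fold higher value in MD43, against 13.7% of all genes at least 1.2-fold higher. Xrcc4 (ENSMUSG00000021615, chromosome 13, 89774027 to 90089608, minus strand) had 0.53 log2 RPKM in MD43 and 0.94 in WT, on 136 and 130 reads. Its difference was -0.41 ± 0.13, a 1.33-fold lower value in MD43, against 17.3% of all genes at least 1.2-fold lower. Among genes with 100 to 1000 reads in both genotypes, 9.54% were at least as far apart as Xrcc4 and 19.2% at least as far apart as Lig4. The values of these partners of 1 complex differed in opposite directions. The RPKM of Lig4 was 1.82 times that of Xrcc4 in WT and 2.98 times in MD43. This shift describes the members with the highest and the lowest difference and is large by that choice. Nhej1 (ENSMUSG00000026162, chromosome 1, 74967139 to 75125200, minus strand) had 2.10 log2 RPKM in MD43 and 2.25 in WT, on 107 and 85.5 reads. Its difference of -0.16 ± 0.15 was about as large as its counting error.

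**Figure D2:**
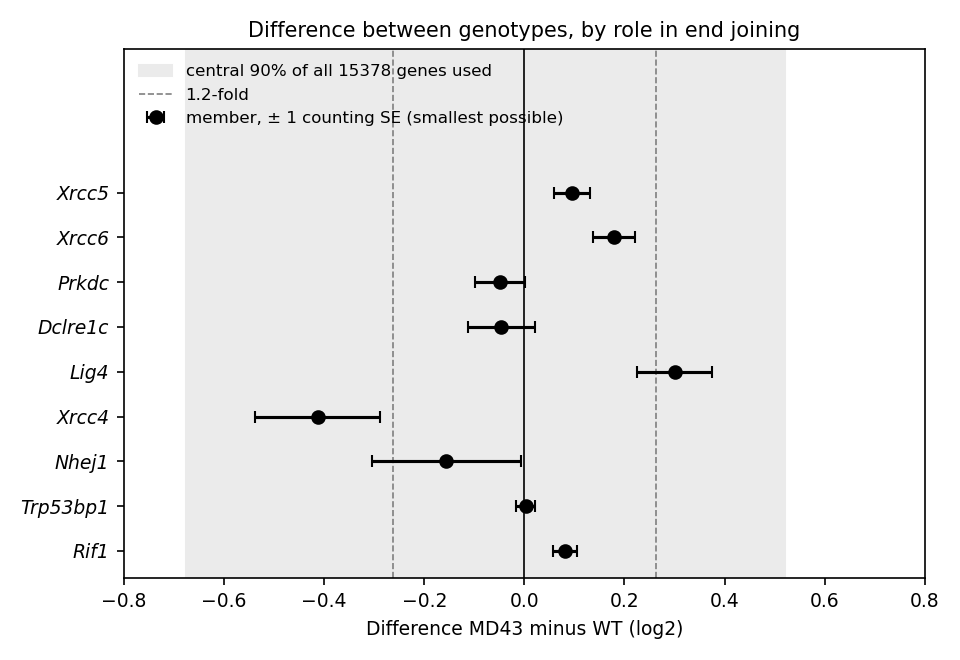
Difference in log2 RPKM, MD43 minus WT (horizontal axis), of each end joining gene in order of role, with bars of 1 counting SE, the smallest error possible. Dashed lines mark 1.2-fold and the grey band holds the central 90% of all 15378 genes used, from -0.68 to 0.52, and every member lies inside the band.

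Lig4 and Xrcc4 each start close to a gene on the opposite strand, and their promoters are shown because these are the members with the widest differences. The sequences are those of RefSeq on GRCm38.p6, from 250 bases before to 50 after the start, written 5′ to 3′ on the strand of the gene. The capitals mark GC boxes (GGGCGG), ETS motifs (CCGGAAG) and NRF1 half-sites (TGCGCA, which reads the same on both strands), searched on both strands. The window of Xrcc4 is chr13:90089559-90089858 and that of Lig4 chr8:9977631-9977930, both on the minus strand.
Xrcc4: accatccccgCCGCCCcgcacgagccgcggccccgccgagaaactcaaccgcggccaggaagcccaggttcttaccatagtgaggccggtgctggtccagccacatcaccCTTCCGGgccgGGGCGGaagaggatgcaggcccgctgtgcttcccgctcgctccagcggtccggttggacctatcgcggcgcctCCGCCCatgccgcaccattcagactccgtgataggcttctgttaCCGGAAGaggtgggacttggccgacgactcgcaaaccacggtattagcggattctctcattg
Lig4: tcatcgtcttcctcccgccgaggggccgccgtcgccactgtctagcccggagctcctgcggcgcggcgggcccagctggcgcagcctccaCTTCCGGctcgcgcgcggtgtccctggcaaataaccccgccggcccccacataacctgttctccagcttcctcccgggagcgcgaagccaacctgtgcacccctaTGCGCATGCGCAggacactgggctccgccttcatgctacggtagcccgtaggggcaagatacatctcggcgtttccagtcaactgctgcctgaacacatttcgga
The Xrcc4 window holds 3 GC boxes and 2 ETS motifs, and the Lig4 window 1 ETS motif and 2 NRF1 half-sites side by side. None of the marked motifs overlap. Both windows are rich in G and C, with 65.7% and 66.3% against a median of 52.7% over all 32851 windows. RefSeq windows were matched for 7 of the 9 members, not for Prkdc and Rif1, and that of Xrcc6 lies 28534 bases from the start used here. A GC box stood in 5 of the 7 and in 35.7% of all windows, an ETS motif in 3 and in 8.86%, and an NRF1 half-site in 4 and in 7.76%. A CCAAT motif stood in 3 of the 7 and in 37.4% of all windows. TATAAA was in none of the 7 and in 13.6% of all windows.

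The gene paired with Lig4, Abhd13, starts 21 bases away. It had 3.12 log2 RPKM in MD43 and 2.99 in WT, a difference of 0.13 ± 0.05, in the direction of Lig4 but below 1.2-fold. Tmem167 starts 485 bases inside Xrcc4 and shares 112 bases of exon with it, 2.66% of the exons of Xrcc4. It had 3.67 log2 RPKM in MD43 and 3.61 in WT, on 3065 and 2124 reads, and its difference of 0.05 ± 0.03 had the opposite sign to that of Xrcc4. Reads of Tmem167 far outnumbered those of Xrcc4, and how many of them were counted for Xrcc4 was not tested. The antisense gene Gm4117 inside Xrcc4 shares no exon with it and had 9.38 and 8.94 reads.

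Trp53bp1 and Rif1 act upstream, in the choice of route. Trp53bp1 (ENSMUSG00000043909, chromosome 2, 121193281 to 121271407, minus strand) encodes 53BP1 and had 4.51 log2 RPKM in MD43 and 4.50 in WT, on 7194 and 5163 reads. The difference was 0.003 ± 0.02, the smallest of the 9. Its exons share 2130 bases, 15.04% of their length, with Tubgcp4 on the opposite strand, which differed by -0.03 ± 0.03. Rif1 (ENSMUSG00000036202, chromosome 2, 52072832 to 52122383, plus strand) encodes the effector that 53BP1 brings to the break and had 4.25 log2 RPKM in MD43 and 4.17 in WT, on 4463 and 3035 reads. Its difference was 0.08 ± 0.02, beyond its counting error but only 1.06-fold, and 71.2% of all genes used were at least as far apart. The RPKM of Trp53bp1 was 1.195 times that of Rif1 in MD43 and 1.26 times in WT.

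**Figure D3:**
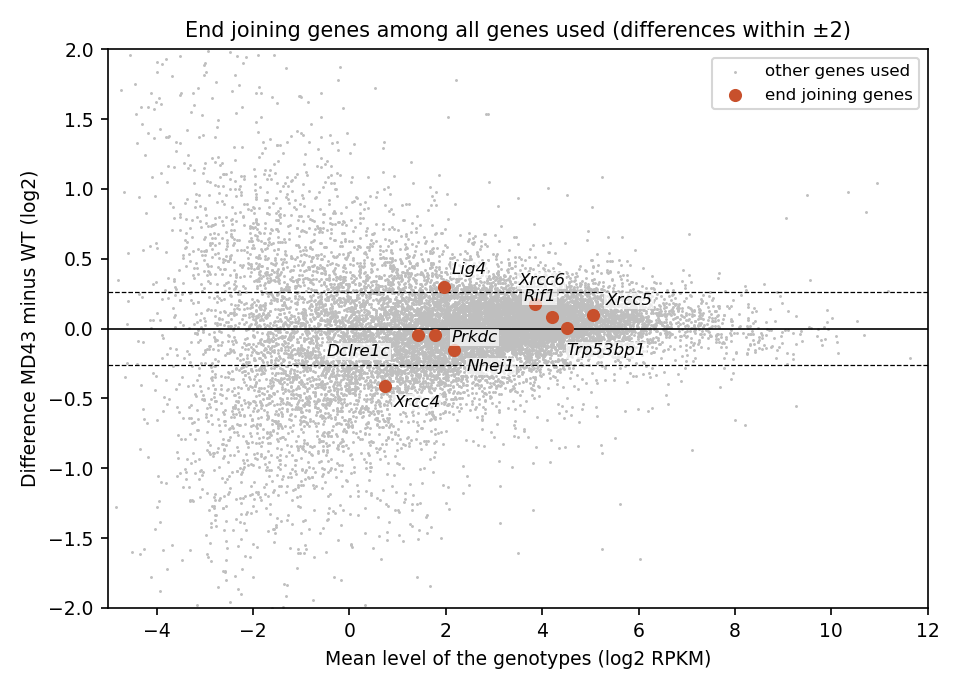
Difference MD43 minus WT (log2, vertical axis) against the mean level of both genotypes (log2 RPKM, horizontal axis) for the genes used, with the end joining genes in red and dashed lines at 1.2-fold. The axes leave out 102 genes by difference and 11 by level. The grey cloud narrows with level, and the members lie within it, Xrcc4 near its lower side and Lig4 near its upper side.

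The whole-number products of reads also gave a view of the spread between the libraries of a genotype. Of the products from 10000 to 100000, 99.7% in MD43 and 99.8% in WT were whole to within 0.05. For 706 genes in MD43 and 778 in WT such a product had exactly 1 pair of whole factors within 4-fold of each other, which were taken as the counts of the 2 libraries without saying which embryo is which. The median ratio of the counts was 1.52 in MD43 and 1.49 in WT, which was taken as the ratio of depth between the libraries and scales the RPM below. As the lower count always comes first, this ratio cannot fall under 1 and may be too high. Around it the log2 ratio spread by 0.25 in MD43 and 0.37 in WT (an SD read from the 16th and 84th percentiles), where counting alone gives 0.16 and 0.15. For genes of this size these spreads put a typical standard error of 0.22 on the log2 difference between genotypes. It can be too small, since the order of the 2 counts is lost. The difference of Xrcc4 was 1.86 times this error.

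For Lig4, the product in WT, 85143, had a single such pair, 281 and 303 reads. The MD43 product, 249865, had 2 pairs within 2-fold, 413 and 605 reads or 385 and 649 reads, and another of 295 and 847 reads. With the higher count in the deeper library, Lig4 stood at 15.5 and 21.4 RPM (reads scaled to the size of the library) in WT. MD43 then stood at 22.01 and 22.8 RPM with 413 and 605 reads, or at 21.2 and 23.6 with 385 and 649 reads. The genotypes were apart with the former pair and overlapped with the latter. With the WT counts the other way round, WT stood at 14.3 and 23.0 RPM and overlapped MD43 in both cases. By any of these readings the WT embryos lay farther from each other in Lig4 than the genotype values did. This rests on the inferred WT depth ratio of 1.49, which may be too high, and other ratios were not tried.

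For Xrcc4, the WT product of 16932 had 3 pairs within 4-fold, of which only 102 and 166 reads lay within 2-fold, as did 85.5% of the single pairs in WT. The MD43 product of 18480 had 5 pairs within 2-fold, from 132 and 140 to 105 and 176 reads. With the higher count in the deeper library, WT stood at 7.76 and 8.47 RPM and MD43 between 5.09 and 7.28 over the 5 pairs, and the genotypes did not overlap. That reading rests on the pairs within 2-fold and on this order. The share of all genes that separate in this way was not counted, so no separation given here can be read as particular to a member. With the WT pair of 83 and 204 reads, WT stood at 6.31 and 10.4 and overlapped the MD43 range. It did so too with 102 and 166 reads the other way round, at 5.20 and 12.6. On the MD43 side, 5 wider pairs reached from 88 and 210 reads to 70 and 264. All of these but 88 and 210 reads overlapped WT. They ran from 84 and 220 reads, at 4.63 and 8.002 RPM, to 70 and 264 reads, at 3.86 and 9.60 RPM. Turned round, 4 of the 5 MD43 pairs within 2-fold overlapped WT as well, such as 105 and 176 reads at 9.70 and 3.82 RPM, and 132 and 140 reads did not. Dclre1c had 1 pair within 2-fold in each genotype, 461 and 652 reads in MD43 and 326 and 508 in WT. Placed likewise, these gave 25.4 and 23.7 RPM in MD43 and 24.8 and 25.9 in WT, which overlapped. For Nhej1 the WT pair within 2-fold was 69 and 106 reads, at 5.25 and 5.41 RPM, and MD43 had 3 such pairs. Of these, 76 and 150 reads (4.19 and 5.46 RPM) and 100 and 114 reads (5.51 and 4.15 RPM) overlapped WT, and 95 and 120 reads (5.24 and 4.36 RPM) lay just below it.

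Other genes of break repair were then described, from lists that hold no member. Their counts stand beside the 31.0% of all genes used that were 1.2-fold apart. That share was 24.8% at 100 to 1000 reads in both genotypes and 8.93% at 1000 or more. Of 12 accessory end joining genes, 11 had at least 10 reads, and 1 was at least 1.2-fold lower in MD43, 0 higher and 10 within. That 1 was Polm, a gap-filling polymerase, at -0.29 ± 0.09. Tdp1, which removes stalled topoisomerase, stood at 0.17 ± 0.05. No reads were found in either genotype for Dntt, the polymerase that adds bases during antigen receptor joining in lymphocytes. Their median was -0.006. The values of the accessory genes thus centred near 0, like those of the members.

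Of 16 genes that act with 53BP1, 14 had a row, and 0 of them were 1.2-fold apart. Shld1, a part of shieldin, stood at -0.26 ± 0.11, Paxip1, the other main effector of 53BP1, at 0.25 ± 0.03, and Atm, the kinase that signals the break, at 0.18 ± 0.04. Of 22 genes of homologous recombination, 2 were at least 1.2-fold higher, 1 was lower and 19 lay within, with a median of 0.06. The higher ones were Dna2, a resection nuclease, at 0.32 ± 0.04 and Xrcc2, a recombination mediator, at 0.28 ± 0.06. The lower one was Rad51b, another recombination mediator, at -0.52 ± 0.12. All 6 genes of alternative end joining had the higher value in MD43, against 51.2% of all genes used, with a median of 0.15. So did 16 of the 22 genes of homologous recombination and 10 of 14 proliferation genes. It was 7 of 14 genes that act with 53BP1 and 5 of 11 accessory genes. Of the alternative end joining genes only Fen1, a flap nuclease, passed 1.2-fold, at 0.26 ± 0.03. Polq, the polymerase that defines this route, stood at 0.24 ± 0.05 and Parp1 at 0.17 ± 0.01.

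**Figure D4:**
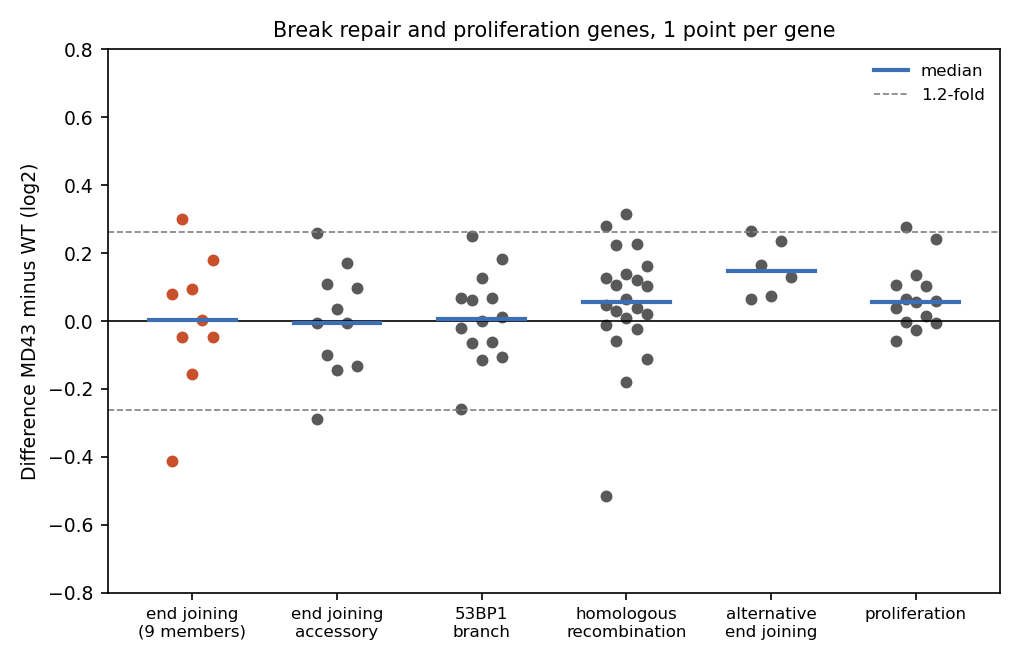
Difference MD43 minus WT (log2, vertical axis) for each gene with at least 10 reads in the lists of break repair and of proliferation, with a blue bar at the median of each list and dashed lines at 1.2-fold. Most points lie within 1.2-fold, the medians run from -0.006 to 0.15, and Xrcc4 and Rad51b are the points below -0.4.

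Several marker lists differed between the genotypes beside these values. Of all genes used, 13.7% were at least 1.2-fold higher in MD43 and 17.3% at least 1.2-fold lower. Of 14 proliferation genes, 1 was at least 1.2-fold higher in MD43 (Mcm5, 0.28 ± 0.02) and 13 lay within, with a median of 0.06. All 13 facial mesenchyme genes had a mean level above 0 log2 RPKM, with a median difference of -0.10. The red blood cell list was higher in 7 of 7 genes, with a summed level of 5818 RPKM in MD43 and 3060 in WT, although 3 globins took only 0.383% and 0.203% of the reads. Of 8 surface ectoderm genes 6 were at least 1.2-fold higher, with a summed level of 184.1 and 118.9 RPKM. Of 9 diencephalon and optic vesicle genes 6 were at least 1.2-fold lower and 1 higher, with a median of -1.44. The summed level was nonetheless 72.5 RPKM in MD43 and 63.3 in WT. Lhx2, the 1 higher gene, made up most of both sums, at 5.70 and 5.21 log2 RPKM. The medians of the neural tube, immune and endothelium lists were -0.23, -0.52 and -0.14. The part of these tissues in the differences of Lig4 and Xrcc4 was not tested. Smchd1 itself differed by -0.01 ± 0.02, and as a missense allele need not alter its level, this does not check the labels.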

How the data were processed

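The FNPs of 4 embryos (2 WT and 2 MD43) were sequenced from 100 ng of total RNA each with a stranded poly(A) library kit. Per the labels and the study's methods, the authors trimmed reads with Trim Galore 0.4.4, mapped them with HISAT2 2.0.5 to GRCm38.p6, and quantified genes in SeqMonk. The deposited values are log2 RPKM, which the authors corrected for transcript length and library size, with the 2 libraries of a genotype merged and the sex chromosomes left out. The table also holds the authors' fold change, mean and FDR, which were not used.

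All differences are MD43 minus WT of the deposited values, with no pseudocount. Of 33708 rows, 33101 matched GENCODE M21 on symbol and coordinates. Xrcc5 was matched by symbol, so its reads are approximate. Reads were recovered from the level shared by genes without reads (0.9 reads per library). The recovery, including factor pairs, was tried on simulated data with less spread between libraries than these. That trial does not show how often a single pair holds the true counts here. No p-value was computed, and 1.2-fold served as the call. The groups came from the sample titles. Named genes were the 9 members, Smchd1, genes that overlap or start within 1000 bases of a member on the opposite strand, and up to 3 genes of a list with the largest differences. In some lists fewer were named, and some genes are not reported here. The members and lists were chosen with earlier results of these data known. Alternatives were pseudocounts, centring, other filters and a correction for GC content and length. Python 3.11.15, numpy 2.4.6 and pandas 2.3.3 were used.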

Additional observations from a re-analysis of the deposited data

How the results depend on the processing

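With 1 RPKM added before the log, 0 members were 1.2-fold apart in place of 2, as an added value shrinks the differences of low genes, here to -0.26 for Xrcc4 and 0.24 for Lig4. The correction for GC content and length moved the median of the members from 0.003 to 0.071, and the cause was not tested. Lig4 and Xrcc4 were 1.2-fold apart with it too, at 0.39 and -0.32. The share of all genes that were 1.2-fold apart was 65.4% with no filter, where depth sets the values of genes without reads, and 17.6% with at least 100 reads in both genotypes. Of the 36 alternatives for single members, 35 left the difference within its counting interval. The other was Rif1, at 0.20 after the GC content and length correction. The differences of Prkdc, Dclre1c and Trp53bp1, all under 0.05 in size, changed sign in 1 alternative each. Prkdc and Dclre1c turned positive with the GC content and length correction, at 0.03 and 0.07. Trp53bp1 turned to -0.003 with centring. The study described the embryos as 2 somite-matched pairs. No paired analysis was possible, because the 2 libraries of each genotype were merged in 1 column. For the same reason no embryo could be left out. Depth limits Nhej1 and Xrcc4 most, with counting errors of 0.15 and 0.13 on the log2 scale.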
